A study of Mus musculus with 8 samples.

Results

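The T-cell receptor beta and gamma loci were followed gene by gene in 4 mouse acute leukaemias and 4 normal bone marrow populations. Members were all listed genes named as a beta V, D, J or C segment, a gamma V or J segment, or a gene with the prefix of the gamma locus, which gave 52 of the 16434 listed genes. Of these, 40 lie in the beta locus on chromosome 6 and 12 in the gamma locus on chromosome 13 (mm10). Every one of the 52 had the coordinates of the GENCODE vM21 annotation.

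RNA-seq was available for 8 libraries from bone marrow of C57BL/6 mice, 8 to 10 weeks old per the labels, with 1 library per group. The 4 leukaemias arose under N-Myc overexpression, as the study's title states, and were all sorted as GFP+ cells. B-ALL and T-ALL are acute lymphoblastic leukaemias of the B and T lineage, taken as B220+ and as CD3+ cells. AML is acute myeloid leukaemia, taken as cells with Mac1 and Gr1, and AUL is acute undifferentiated leukaemia, taken as cells lacking B220, CD3, Mac1 and Gr1. Normal marrow was sorted with the same antigens, with no GFP gate named, into B cells, T cells, myeloid cells and cells lacking all of them (lineage-negative). The labels give neither the promoter that drives N-Myc nor the number of mice behind a library, and they do not say whether a leukaemia was 1 clone. With 1 library per group, no comparison within a gate has a replicate check or a p-value.

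A T-cell receptor chain is made by joining 1 variable (V), in the beta locus 1 diversity (D), and 1 joining (J) segment on the chromosome, and splicing the result to a constant (C) gene. The beta chain pairs with alpha in most T cells, and the gamma chain pairs with delta in a smaller lineage. Each new rearrangement picks its own V and J, so a mixed T-cell population spreads its transcripts over many V segments whereas the descendants of 1 cell share the same ones. Constant genes are transcribed from rearranged loci and also from loci that carry no complete rearrangement. Gene-level values cannot tell these transcripts apart, and in bulk RNA fewer cells of a type cannot be told apart from less RNA per cell.

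The beta members were 22 V segments of 35 annotated, both D segments (Trbd1 and Trbd2), all 14 J segments, and the constant genes Trbc1 and Trbc2. Trbv22, Trbv24 and Trbj2-6 are annotated as pseudogenes. The locus is ordered as V segments, then Trbd1 with 7 J segments and Trbc1, then Trbd2 with 7 J segments and Trbc2, with Trbv31 at the far end on the minus strand. Gamma members were 5 V segments of 7 annotated (Tcrg-V4, Tcrg-V6, Tcrg-V5, Tcrg-V3 and Trgv2), 3 J segments of 4 (Trgj1, Trgj2 and Trgj4) and the 4 constant genes Tcrg-C1 to Tcrg-C4. The other 13 beta V segments, Tcrg-V1, Tcrg-V7 and Trgj3 were not analysed here.

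The results turn on 4 V segments, whose ends are shown because this stretch encodes the last framework residues and joins the J segment. The last 60 bases of each annotated transcript are given 5′ to 3′ from GENCODE vM21 (GRCm38), with TGTGC in capitals, which holds the codon of the conserved cysteine (TGT). The genes lie at chr6:41047340-41047995, plus strand (Trbv2), chr6:41113550-41114067, plus strand (Trbv12-1), chr6:41118851-41119364, plus strand (Trbv12-2) and chr13:19336573-19337167, minus strand (Trgv2).
Trbv2: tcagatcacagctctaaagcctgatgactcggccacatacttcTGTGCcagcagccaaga
Trbv12-1: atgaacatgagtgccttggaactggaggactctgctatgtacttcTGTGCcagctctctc
Trbv12-2: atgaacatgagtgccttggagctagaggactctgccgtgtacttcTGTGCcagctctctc
Trgv2: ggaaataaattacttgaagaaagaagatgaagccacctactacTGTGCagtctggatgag
The letters TGTGC were in the last 60 bases of 26 of 35 annotated beta V segments (74.29%) and of 6 of 7 gamma V segments, against 5.8% of 32851 promoter windows of 60 bases (RefSeq, GRCm38). They were read on the transcribed strand and on the other strand were in 1 beta V segment. Trbv12-1 and its neighbour Trbv12-2 were 88.31% identical over their transcripts and shared no run longer than 44 bases. Trgv2 was 95.19% identical to Tcrg-V1 and 94.57% to Tcrg-V3, with shared runs of up to 74 and 62 bases, so reads of 150 bases could differ between them only at few positions. How the counting treated reads that fit more than 1 gene is not given in the sources used here.

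The second D and J set is shown because the libraries differed in which of its J segments carried fragments. Trbd1 (chr6:41533201-41533212, plus strand) and Trbd2 (chr6:41542163-41542176, plus strand) are the D segments. Trbj2-1 to Trbj2-7 span chr6:41542754-41542803, plus strand, to chr6:41543810-41543856, plus strand, and the gamma segments Trgj2 and Trgj4 lie at chr13:19311245-19311304, minus strand, and chr13:19342152-19342212, plus strand. Capitals mark TTNG followed after 5 further bases by GG, which encodes the conserved phenylalanine and glycine (or alanine) stretch of a J segment.
Trbd1: gggacagggggc
Trbd2: gggactgggggggc
Trbj2-1: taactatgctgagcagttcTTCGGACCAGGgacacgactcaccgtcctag
Trbj2-2: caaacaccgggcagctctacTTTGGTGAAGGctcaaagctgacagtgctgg
Trbj2-3: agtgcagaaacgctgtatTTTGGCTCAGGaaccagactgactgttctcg
Trbj2-4: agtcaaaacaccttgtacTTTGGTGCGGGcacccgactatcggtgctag
Trbj2-5: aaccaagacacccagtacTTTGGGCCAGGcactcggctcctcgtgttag
Trbj2-6: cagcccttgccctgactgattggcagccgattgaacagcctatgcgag
Trbj2-7: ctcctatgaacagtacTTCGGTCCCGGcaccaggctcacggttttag
Trgj2: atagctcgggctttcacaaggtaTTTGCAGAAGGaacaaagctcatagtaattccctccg
Trgj4: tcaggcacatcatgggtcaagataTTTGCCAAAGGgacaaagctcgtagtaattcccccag
That motif was found in 12 of 14 beta J segments (85.71%), missing in Trbj1-7 and in the pseudogene Trbj2-6, and in all 4 annotated gamma J segments. It was in 3.6% of 32851 promoter windows of 48 bases, and in no J segment on the other strand.

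Values were deposited as FPKM (fragments scaled to gene length and library total). A step of 1 fragment per library could be read from the values, giving 33818653 to 52280171 fragments per library. With that step, 393 of the 416 member values were whole fragments within a tolerance of 0.02, a count that includes values of 0, which always pass. The members held 0.149% of all fragments in T-ALL, 0.154% in normal T cells, 0.0824% in AUL and 0.0224% in B-ALL. They held, in AML and in normal lineage-negative, B and myeloid cells, 0.00386%, 0.00408%, 0.00155% and 0.000593%, in that order. D and J segments are 12 to 61 bases long, shorter than a read, so their FPKM is not comparable with that of V and C genes, and segment classes are compared below in fragments. Intervals are 95% exact binomial or Poisson intervals and cover counting error only.

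Several libraries carried RNA that their gate does not name. The 7 T-cell markers (Cd3d, Cd3e, Cd3g, Cd247, Cd5, Lck and Trac) summed to 2433 FPKM in normal T cells, 1814 in T-ALL, 1343 in AUL, 254.6 in B-ALL and 32.8 in AML, against 15.1 to 44.1 in the other 3 normal libraries. All 7 were at 1 FPKM or more in each of the 4 leukaemias, and the AUL library, sorted as CD3-, had 57.4 FPKM of Cd3e and 275.8 of Cd3d. The 5 B-cell markers summed to 610.1 FPKM in the normal T library against 5.83 in T-ALL, and basophil and mast cell markers to 472.8 against 1.72. In AML, Itgam, which encodes the Mac1 alpha chain, had 1.63 FPKM against 208.1 in normal myeloid cells, and Ly6g, which encodes a Gr1 antigen, 8.91 against 798. The granule genes Elane and Mpo were higher in AML (3481 against 445.5 and 2220 against 354.4), and over the myeloid marker list 2 entries were at least 2-fold higher and 5 lower. The NK markers summed to 368.4 FPKM in normal T cells and to at most 88.8 in any other library. The part of these cells in the results below was not tested, and no result within a gate can be given without a library.

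Normal T cells had fragments on every listed beta V segment, whereas T-ALL had them on 1 only. Of the 22, 17 reached 10 FPKM in normal T cells, 1 in T-ALL, 2 in B-ALL and 0 in AML, AUL, normal B, normal myeloid and normal lineage-negative cells. At least 1 fragment was found on all 22 in normal T cells, 1 in T-ALL, 11 in B-ALL, 4 in AML, 2 in AUL, and on 9, 12 and 17 in the normal B, myeloid and lineage-negative libraries. The 2 T-cell libraries had similar depth, with 43206548 fragments in T-ALL and 37000715 in normal T cells.

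**Figure D1:**
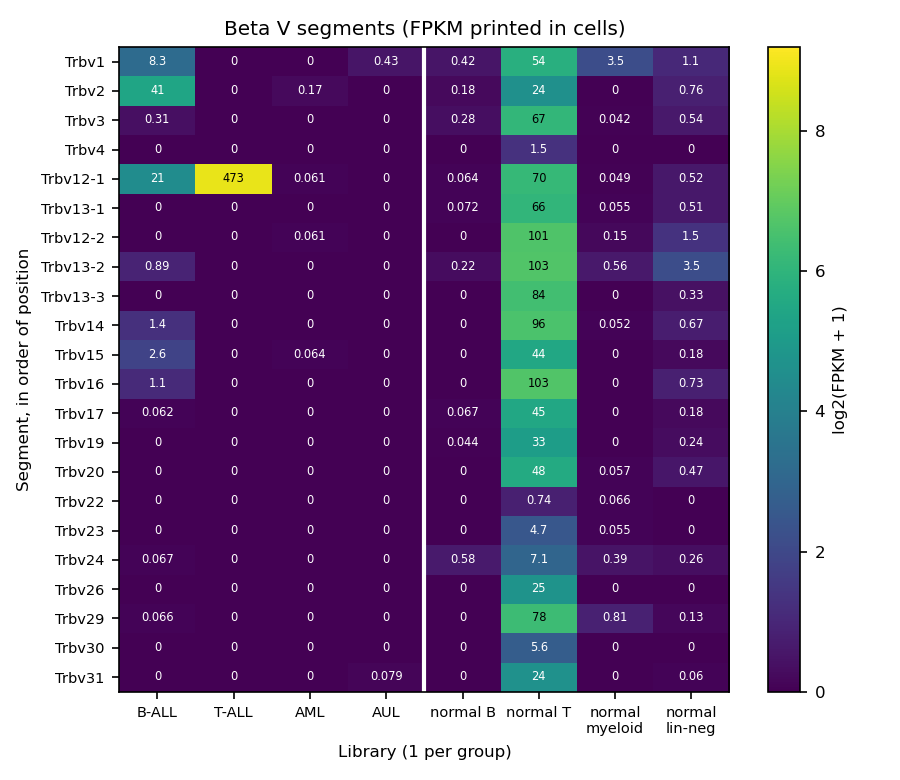
FPKM of the 22 listed beta V segments (vertical axis, in order of position) in the 8 libraries (horizontal axis, 1 per group, leukaemias left of the white line). Colour is log2(FPKM + 1) and each box shows the FPKM. The normal T column is bright for 17 segments, the T-ALL column only for Trbv12-1 at 473 FPKM, and the AML and AUL columns stay below 1.

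In T-ALL, Trbv12-1 had 473.4 FPKM from 7956 fragments, and the other 21 V segments had none. Its share of the V fragments was thus 100% (99.95% to 100%), and 0 fragments on any other segment allow a share of up to 0.0377%. Trbv12-1 had 21.0 FPKM (350 fragments) in B-ALL, 0.0608 in AML and 0 in AUL, against 0.0645 in normal B, 70.3 in normal T, 0.0492 in normal myeloid and 0.520 in normal lineage-negative cells. T-ALL was the highest library for this segment, 6.73-fold above normal T cells (6.31 to 7.19). The close copy Trbv12-2, with 100.5 FPKM in normal T cells, had no fragment in T-ALL.

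In normal T cells no segment stood out. Trbv16 was highest at 103.0 FPKM (1517 fragments, 9.50% of the summed V FPKM), followed by Trbv13-2 at 102.6 and Trbv12-2 at 100.5, and the median over the 22 was 46.5. The segments nearest to the level of 10 FPKM were Trbv2 above it at 23.6 and the pseudogene Trbv24 below it at 7.09. Normal T cells were the highest library for 20 of the 22 beta V segments, the exceptions being Trbv12-1 (T-ALL) and Trbv2 (B-ALL).

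B-ALL carried 2 V segments above the level. Trbv2 had 41.3 FPKM (991 fragments), which was 53.5% of the summed V FPKM and 62.1% of the V fragments (59.7% to 64.5%), and Trbv12-1 had 21.0 FPKM. Trbv1 lay just below at 8.33 FPKM (149 fragments). Beside these 41.3 FPKM, Trbv2 had 0 in both T-ALL and AUL and 0.169 in AML, against 0.179 in normal B, 23.6 in normal T, 0 in normal myeloid and 0.763 in normal lineage-negative cells. B-ALL and T-ALL therefore shared Trbv12-1 among their segments but not Trbv2 or Trbv1, both at 0 fragments in T-ALL.

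Few fragments fell on beta V segments elsewhere. AML and AUL had 7 fragments each over all 22 segments, those of AUL being 6 on Trbv1 and 1 on Trbv31. Normal B cells had 31, normal myeloid cells 119, of which 77 were on Trbv1 (3.53 FPKM), and normal lineage-negative cells 201, with Trbv13-2 highest at 3.51 FPKM.

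The beta constant genes did not follow the V segments. Trbc1 had 433.9 FPKM in T-ALL, 392.0 in AUL, 48.9 in B-ALL and 29.99 in AML, against 11.6 in normal B, 467.8 in normal T, 1.65 in normal myeloid and 23.2 in normal lineage-negative cells. AUL was thus close to the T-cell libraries in Trbc1. Trbc2 had 549.0, 423.2, 145.7 and 9.60 FPKM in the same order of leukaemias, against 2.75, 787.0, 1.88 and 9.91 in the same order of normal cells. Against the normal cells of its gate, AUL was 16.9-fold higher in Trbc1 (15.6 to 18.3) and 42.7-fold higher in Trbc2 (38.1 to 48.01), and B-ALL 4.23-fold (3.72 to 4.82) and 52.9-fold higher (42.2 to 67.3). AML was 18.1-fold (13.7 to 24.3) and 5.11-fold higher (3.91 to 6.76). In T-ALL Trbc1 was 1.08-fold lower (1.05 to 1.11) and Trbc2 1.43-fold lower (1.40 to 1.46), both under the 2-fold used below as a call.

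The transcripts of Trbc1 and Trbc2 were 87.67% identical and shared 110 windows of 150 bases, with a longest shared run of 259 bases, so the split between them depends on how shared reads were counted. The ratio of Trbc2 to Trbc1 FPKM was 2.98 in B-ALL, 1.27 in T-ALL, 1.08 in AUL and 1.68 in normal T cells. It was 0.320 in AML, 0.238 in normal B, 0.427 in normal lineage-negative and 1.14 in normal myeloid cells, the last with 54 and 68 fragments only.

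**Figure D2:**
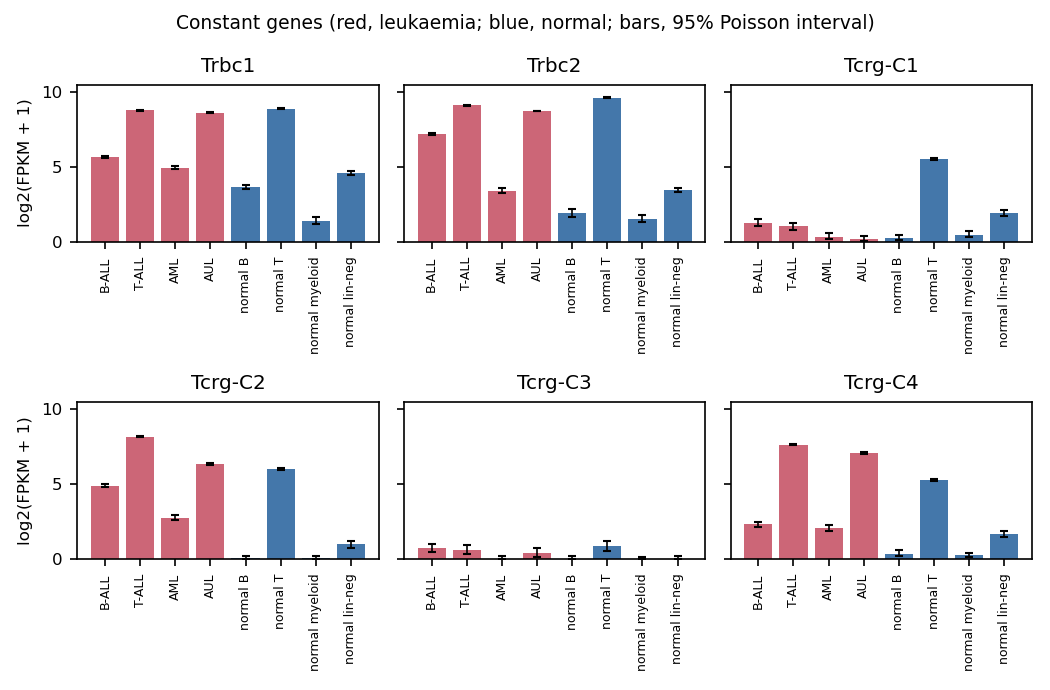
Constant genes of both loci, 1 panel each, as log2(FPKM + 1) (vertical axis) in the 8 libraries (horizontal axis, 1 each, red for leukaemia and blue for normal). Bars carry 95% Poisson intervals, which cover counting error only. AUL reaches 392.0 FPKM of Trbc1 and 134.1 of Tcrg-C4, and Tcrg-C1 is high in normal T cells (45.7) and at 1.39 or less in the 4 leukaemias.

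Set against their own constant genes, V fragments of the beta locus were nearly missing in AUL. There were 7 listed V fragments beside 18181 on Trbc1 and Trbc2 in AUL, or 0.0385 per 100 (0.0155 to 0.0793). T-ALL had 28.3 V fragments per 100 C fragments (27.6 to 29.0), B-ALL 28.3 (26.8 to 29.9) and normal T cells 49.7 (48.7 to 50.6). AML had 0.652 (0.262 to 1.35), normal B cells 8.52 (5.70 to 12.3), normal lineage-negative cells 21.2 (18.1 to 24.7) and normal myeloid cells 97.5 (75.1 to 126.6). The intervals of AUL and AML overlapped neither each other nor those of any other library. Only the 22 listed V segments enter these ratios, and transcripts that use one of the other 13 would count on the C genes alone.

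**Figure D3:**
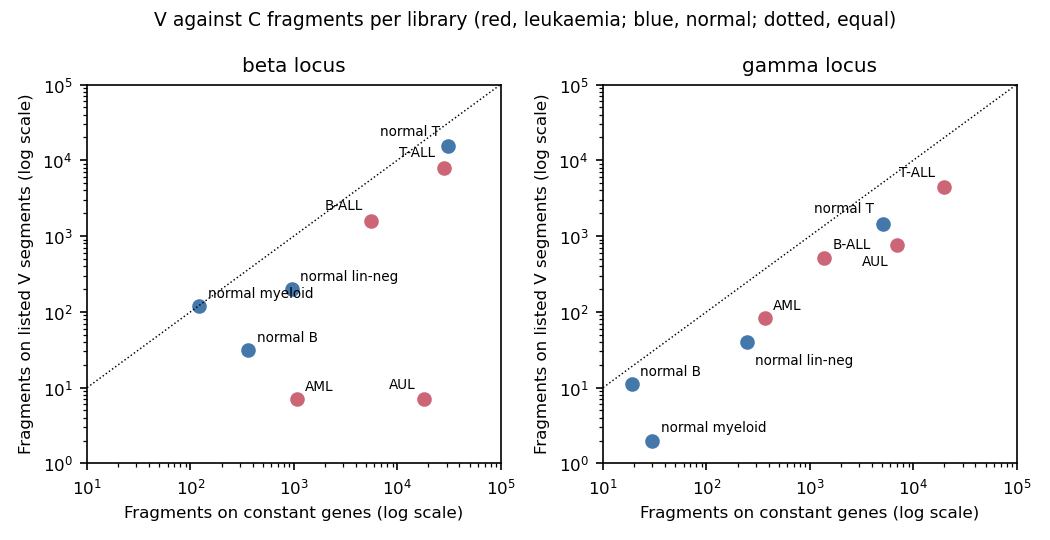
Fragments on listed V segments (vertical axis, log scale) against fragments on constant genes (horizontal axis, log scale) per library for the beta (left) and gamma (right) locus, red for leukaemia and blue for normal, with equality dotted. In the beta panel AUL lies far below the T-cell libraries at 7 V beside 18181 C fragments, and in the gamma panel it has 765 beside 6919.

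J fragments of the beta locus kept step with C fragments in AUL. There were 10.7 J fragments per 100 C fragments in AUL, 11.7 in T-ALL, 12.1 in normal T cells, 8.20 in AML and 6.66 in B-ALL. In normal lineage-negative, normal B and normal myeloid cells the ratio was 33.5, 43.7 and 24.6, the last from 30 J fragments.

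Within the second J set, AUL fragments lay on its last 2 segments. Trbj2-6 had 686 fragments and Trbj2-7 had 589 in AUL, whereas Trbj2-1 to Trbj2-5 held 8 together, so 99.4% of the set (98.8% to 99.7%) fell on Trbj2-6 and Trbj2-7. That share was 66.9% in T-ALL (65.0% to 68.7%), 65.9% in B-ALL (59.1% to 72.2%) and 57.2% in normal T cells (55.0% to 59.4%). The upstream 5 segments held 838 fragments in T-ALL, among them 383 on Trbj2-2, and 844 in normal T cells. AUL was the highest library for Trbj2-6 at 422.6 FPKM, although that segment is an annotated pseudogene and lacks the framework motif shown above. Trbj2-6 had 381.9 FPKM in T-ALL, 29.6 in B-ALL, 1.97 in AML, 0 in normal B, 275.9 in normal T, 0.797 in normal myeloid and 4.22 in normal lineage-negative cells. Trbj2-7 had 444.2 FPKM in T-ALL, 370.6 in AUL, 38.7 in B-ALL and 7.54 in AML, against 367.4, 6.70, 3.20 and 0.407 in the matching normal cells. A fragment counts for a J segment wherever it overlaps it, so it need not come from a transcript joined at that segment.

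**Figure D4:**
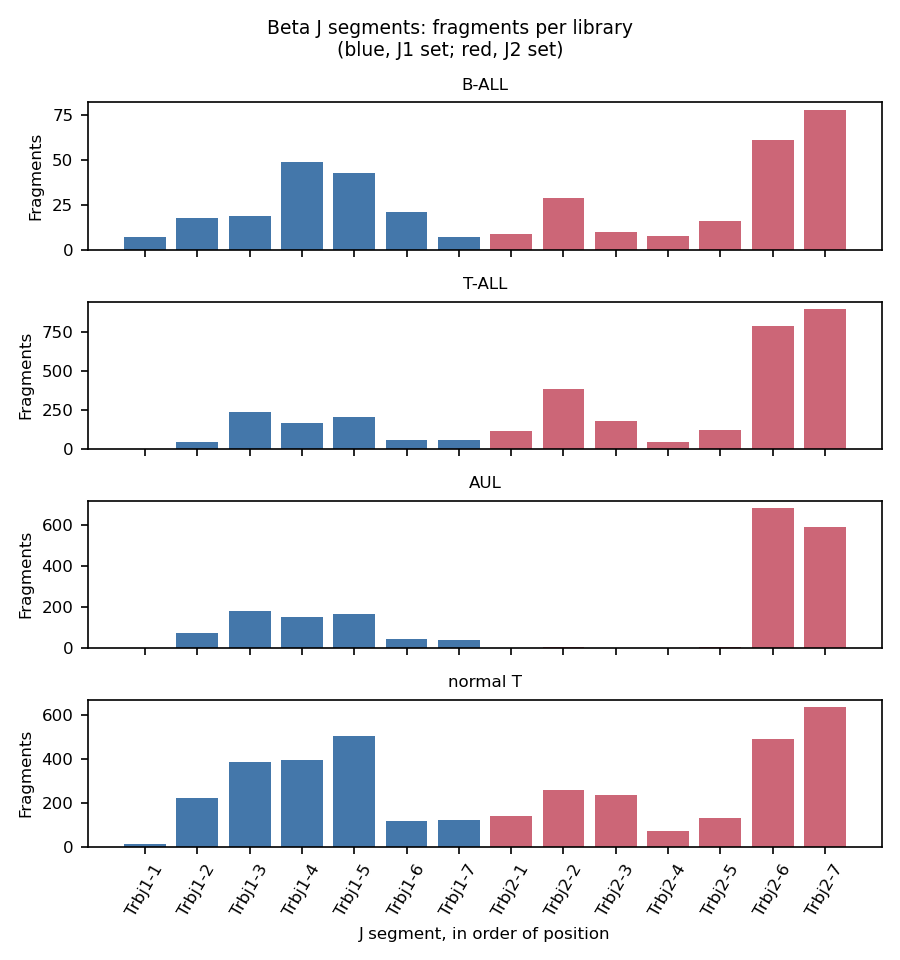
Fragments on the 14 beta J segments (horizontal axis, in order of position, blue for the first and red for the second set) in B-ALL, T-ALL, AUL and normal T cells, with a scale of its own in each panel. In AUL the second set holds 686 and 589 fragments on Trbj2-6 and Trbj2-7 and 8 on the 5 segments before them.

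The first J set differed at its first segment. Trbj1-1 had 0 fragments in T-ALL, 1 each in AML and AUL and 7 in B-ALL, against 16 in normal T, 2 in normal myeloid, 44 in lineage-negative and 24 in normal B cells. It made up 16.3% of the first set's fragments in normal B and 16.4% in lineage-negative cells, 0.904% in normal T, 4.27% in B-ALL, 0.152% in AUL and 0% of 764 fragments in T-ALL. In AUL and T-ALL the set's fragments were most frequent on Trbj1-3 (183 and 236), Trbj1-5 (168 and 206) and Trbj1-4 (150 and 166). Over both sets, the second held 76.8% of J fragments in T-ALL, 66.1% in AUL, 56.3% in B-ALL, 52.7% in normal T, 40.9% in AML, 16.7% in normal myeloid, 15.7% in lineage-negative and 7.55% in normal B cells.

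The D segments are so short that few fragments fell on them. Trbd1 had 40 fragments in T-ALL, 30 in AUL, 81 in B-ALL and 10 in AML, against 32 in normal B, 140 in normal T, 7 in normal myeloid and 53 in normal lineage-negative cells. Trbd2 had 30 in normal T cells, 7 in T-ALL, 1 in B-ALL and 0 in the other 5 libraries.

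Among the listed V and constant genes of the gamma locus, a single V segment and 2 constant genes carried most of the signal of the leukaemias. The shares and counts of gamma V segments cover the 5 listed ones only. Tcrg-V1, which lies before Trgj4 and Tcrg-C4 on the plus strand, was not analysed here. Trgv2 had 208.7 FPKM in T-ALL, 46.1 in AUL, 23.4 in B-ALL and 3.996 in AML, against 0.306 in normal B, 61.6 in normal T, 0.0779 in normal myeloid and 1.24 in normal lineage-negative cells. It held 94.5% of the summed gamma V FPKM in B-ALL, 99.7% in T-ALL and 100% in AML and AUL, from 493, 4427, 83 and 765 fragments. In normal T cells its share was 72.8%, with Tcrg-V4 also above 10 FPKM (14.8) and Tcrg-V6, Tcrg-V5 and Tcrg-V3 at 3.19, 2.73 and 2.38. The number of gamma V segments at 10 FPKM or more was thus 2 in normal T cells, 1 in each of B-ALL, T-ALL and AUL, and 0 in AML and the other normal libraries. Tcrg-V4, Tcrg-V5 and Tcrg-V6 lie within an antisense gene annotated on the other strand (Gm31887), and reads of sense and antisense genes cannot be told apart without strand.

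Tcrg-C2, the constant gene next to Trgj2 and Trgv2 on the minus strand (chr13:19304649-19307551), had 285.0 FPKM in T-ALL, 79.04 in AUL, 28.8 in B-ALL and 5.74 in AML. Its matching normal values were 0.0274 in B, 62.9 in T, 0.0419 in myeloid and 0.959 in lineage-negative cells, so each leukaemia was above its counterpart. The folds were 4.53 in T-ALL (4.32 to 4.75) and 82.4 in AUL (60.1 to 116.1). The normal B and myeloid values rest on 1 and 2 fragments, giving ratios of 1051 in B-ALL (188.3 to 41559) and 137.2 in AML (37.5 to 1140).

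Tcrg-C4, which follows Trgj4 on the plus strand (chr13:19344558-19352756), had 197.9 FPKM in T-ALL and 134.1 in AUL, against 37.5 in normal T and 2.15 in lineage-negative cells. B-ALL had 3.95 against 0.280 in normal B cells, and AML 3.22 against 0.175 in normal myeloid cells. The folds were 5.28 in T-ALL (4.99 to 5.59), 62.5 in AUL (50.9 to 77.5), 14.1 in B-ALL (7.69 to 28.8) and 18.4 in AML (9.41 to 41.1). AUL had more Tcrg-C4 than Tcrg-C2 and T-ALL less. Trgj4 had 698 fragments beside 8422 of Tcrg-C4 in T-ALL and 2 beside 4466 in AUL, whereas Trgj2 had 49 and 32. Over the locus there were 3.79 J fragments per 100 C fragments in T-ALL and 0.491 in AUL.

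Tcrg-C1, whose V segments include Tcrg-V4, Tcrg-V5 and Tcrg-V6, had 45.7 FPKM in normal T cells and 2.70 in normal lineage-negative cells. It stood at 1.03 in T-ALL, 0.128 in AUL, 1.39 in B-ALL and 0.256 in AML, against 0.190 in normal B and 0.393 in normal myeloid cells. T-ALL was 44.5-fold below normal T cells (32.6 to 62.2) and AUL 21.1-fold below lineage-negative cells (8.01 to 78.8). Trgj1, next to it, had 49 fragments in normal T cells, 4 in normal lineage-negative cells, 1 in T-ALL and 0 in the other libraries. Tcrg-C3 stayed at or below 0.787 FPKM in all 8 libraries. Tcrg-C1, Tcrg-C2 and Tcrg-C3 were 96.15% to 97.31% identical in pairs but shared no window of 150 bases, and Tcrg-C4 was 71.25% identical to Tcrg-C1.

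**Figure D5:**
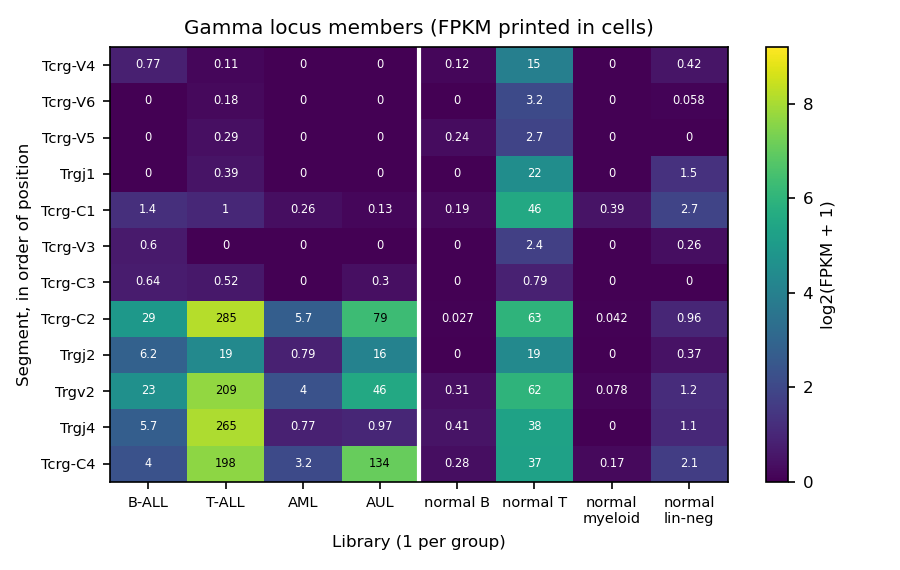
FPKM of the 12 listed gamma locus genes (vertical axis, in order of position) in the 8 libraries (horizontal axis, 1 per group, leukaemias left of the white line), coloured by log2(FPKM + 1) with the FPKM in each box. J segments are shorter than a read, so their FPKM is not on the scale of V and C genes. Trgv2, Tcrg-C2 and Tcrg-C4 are bright in T-ALL and AUL, and also in normal T cells (61.6, 62.9 and 37.5 FPKM). Tcrg-C1 is bright in normal T cells only.

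V fragments of the gamma locus were present in AUL. It had 11.1 V fragments per 100 C fragments (10.2 to 11.9), against 22.5 in T-ALL (21.8 to 23.2), 37.7 in B-ALL (34.0 to 41.8), 22.7 in AML (17.6 to 28.9) and 28.8 in normal T cells (27.2 to 30.6). Normal lineage-negative cells had 16.4 (11.4 to 23.0), and the normal B and myeloid libraries rest on 11 and 2 V fragments. Only the 5 listed V segments enter these ratios, and transcripts that use Tcrg-V1 or Tcrg-V7 would count on the C genes alone. Tcrg-C4 held 4466 of 6919 C fragments in AUL, 8422 of 19732 in T-ALL, 167 of 1368 in B-ALL and 134 of 366 in AML. It held 1366 of 5073 in normal T and 94 of 244 in lineage-negative cells. Its part in the order of the ratios was not tested.

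The 52 members were then set against the normal cells of each gate, on the scale log2(FPKM + 1), and called where the difference was at least 1 (2-fold) with 1 FPKM or more in the higher library. In B-ALL 23 members were higher and 2 lower, 5 were not called and 22 were below 1 FPKM in both libraries, while 18.2% of all genes tested were higher and 21.9% lower. The 2 lower members were Trbj1-1 and Trbj1-7, the second within counting error (7 against 15 fragments), as was Trbd2 among the higher ones (1 against 0). In T-ALL 5 members were higher and 34 lower, 11 were not called and 2 were below 1 FPKM in both, while 22.1% of all genes were higher and 24% lower. The 5 were Trbv12-1, Trgv2, Trgj4, Tcrg-C2 and Tcrg-C4, and 20 of the 34 were beta V segments.

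In AML 10 members were higher and 1 (Trbv1) lower, 6 were not called and 35 were below 1 FPKM in both, while 43.3% of all genes were higher and 26.7% lower. The 10 were Trbc1, Trbc2, Tcrg-C2, Tcrg-C4, Trgv2 and 5 beta J segments. In AUL 14 were higher and 7 lower, 5 were not called and 26 were below 1 FPKM in both, while 13.6% of all genes were higher and 29.5% lower. The 7 lower members were Trbv12-2, Trbv13-2, Trbj1-1, Trbj2-1, Trbj2-3, Trgj1 and Tcrg-C1. Over all 52 members the median log2 difference was -1.92 in T-ALL, -0.13 in AUL, 0.67 in B-ALL and 0 in AML, beside 0.03, -0.18, -0.02 and 0.56 over all genes tested. For AML, scaling the libraries by the median ratio of genes moved the median of all genes by -0.69, and the same 10 members were at least 2-fold higher.

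Over the 4 pairs, limma with the gate as a block tested 33 of the 52 members, those with 1 FPKM or more in at least 2 libraries. After Benjamini-Hochberg adjustment over 11071 genes, 2 members were higher in the leukaemias and 0 lower, while 1.26% of all genes were higher and 2.42% lower. Tcrg-C2 was higher by 3.77 on the log2 scale (SE 0.62, adjusted p = 0.0378 by limma) and Trgv2 by 3.14 (SE 0.57, adjusted p = 0.0418), both in 4 of 4 pairs. Next came Tcrg-C4 (2.90, SE 0.66, adjusted p = 0.0543 by limma) and Trbj2-7 (2.93, SE 0.75, adjusted p = 0.0613). Trbc1 and Trbc2 had 2.36 (adjusted p = 0.0665 by limma) and 2.98 (0.0813), higher in 3 of 4 pairs. At an unadjusted p under 0.05 there were 9 members higher and 1 (Trbj1-1, -2.24) lower, beside 35.4% of all genes in either direction. Both calls depended on the libraries in the fit: the number of members higher was 1 without the B gate (Tcrg-C2, adjusted p = 0.0468 by limma) and 0 without the T, the myeloid or the lineage-negative gate. In those last 3 fits the adjusted p was 0.0609 to 0.0986 for Tcrg-C2 and 0.0644 to 0.0986 for Trgv2, and at most 2 of all genes were called higher. Leaving out the gate block also left 0 members (adjusted p = 0.129 for Tcrg-C2 by limma). The 4 leukaemias are different diseases, so this contrast treats lineages as replicates.

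The genes that assemble, carry and signal from the receptor were followed as a list of 26, of which 25 were listed and Ptcra was not analysed here. In AUL 18 were at least 2-fold higher than in lineage-negative cells and 4 lower, beside 13.6% and 29.5% of all genes. B-ALL had 12 higher and 6 lower (all genes 18.2% and 21.9%), and T-ALL 1 and 10 (22.1% and 24%). AML had 10 and 4, where 43.3% of all genes were higher and 26.7% lower, so its share of higher genes was near that of all genes. In the fit over the 4 pairs, Tcf7, a transcription factor of early T cells, was higher (3.30, adjusted p = 0.0455 by limma). Rag1, a subunit of the recombinase that cuts V, D and J segments, was lower (-3.60, adjusted p = 0.0418 by limma), as was Dntt, the polymerase that adds bases at the junctions (-3.85, 0.0418). The other 22 did not pass. These 3 calls were also lost when any gate was left out, with adjusted p by limma of 0.0606 to 0.0986 for Tcf7, 0.0545 to 0.122 for Rag1 and 0.0586 to 0.104 for Dntt, and without the gate block (0.207, 0.0832 and 0.0648).

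Rag1 had 0.00701 FPKM in T-ALL, 0.0134 in AUL, 5.84 in B-ALL and 0.00358 in AML, against 84.1 in normal B, 12.9 in normal T, 1.79 in normal myeloid and 45.5 in normal lineage-negative cells. Every leukaemia was below its counterpart. Dntt had 0.0441, 0.0846, 0.356 and 0 FPKM in these leukaemias, against 6.67, 67.3, 35.2 and 2.54 in their counterparts. B-cell markers summed to 610.1 FPKM in the normal T and 607.9 in the lineage-negative library, against 5.83 in T-ALL and 3.57 in AUL. In normal B cells they summed to 4023 against 1711 in B-ALL, and in normal myeloid cells to 34.7 against 3.77 in AML. Among the normal libraries, Rag1 and the B-cell markers were highest in normal B cells, and Dntt in lineage-negative cells. The part of B-cell markers in the Rag1 and Dntt levels was not tested.

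Trac, the alpha constant gene, had 263.9 FPKM in T-ALL, 98.6 in AUL, 69.4 in B-ALL and 3.09 in AML, against 456.4, 2.34, 1.04 and 0.681 in their counterparts. Trdc, the delta constant gene, had 0, 65.2, 0.441 and 1.9997 FPKM in these leukaemias, against 20.7, 1.40, 0.493 and 0.0544 in their counterparts. AUL was thus the highest library for Trdc, and T-ALL was listed at 0 there although it had the highest levels of Trgv2 and Tcrg-C2. The signalling kinases Lck and Zap70 had 626.4 and 247.2 FPKM in AUL against 26.0 and 10.2 in lineage-negative cells. The coreceptor genes Cd8a and Cd8b1 had 237.7 and 267.5 FPKM in normal T cells and at most 5.55 in any leukaemia, and Cd4 had 26.8 in T-ALL and at most 0.702 in the other 3.

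A list of 15 genes of gamma-delta T cells gave 3 higher and 9 lower in T-ALL, 3 and 4 in AUL, 0 and 3 in B-ALL, and 1 and 4 in AML, at 2-fold and without a test. All genes reaching 1 FPKM in the pair gave 22.1% and 24% in T-ALL and 13.6% and 29.5% in AUL. They gave 18.2% and 21.9% in B-ALL, and 43.3% and 26.7% in AML. The 3 higher in T-ALL are near that background. List genes below 1 FPKM in both libraries could not be called, so a count out of 15 is not on the base of these shares. In B-ALL and normal B cells only 3 and 5 of the 15 reached 1 FPKM. Trdv5, a delta V segment, had 16.6 FPKM in AUL, 8.58 in normal T cells and at most 0.533 in the other 6 libraries. Zbtb16, a transcription factor of innate-like T cells, had 98.4 FPKM in T-ALL and at most 3.98 in the other 7. The transcriptional regulators Id3 and Etv5 had 150.8 and 26.2 FPKM in T-ALL against 46.8 and 5.13 in normal T cells, and 107.5 and 10.7 in AUL against 13.3 and 5.83 in lineage-negative cells.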

How the data were processed

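Poly(A) RNA of sorted cells was sequenced as paired reads of 150 bases, per the labels' protocols. The authors used STAR, HTSeq and edgeR with build mm10, per the submitters' processing notes, which give no versions or settings. The authors deposited 1 table of FPKM for 16434 genes in 8 libraries, and 0 sample columns were left unmapped. Why genes entered the table is not given in the sources used here, so every share of genes is a share of those listed.

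Fragments were estimated as FPKM times the mean transcript length of GENCODE vM21, divided by the step of 1 fragment in each library. Against 0 fragments a fold uses 3 fragments as a floor. Levels were compared as log2(FPKM + 1), on the deposited scaling. The limma fit (version 3.58.1 in R 4.3.3; lmFit and eBayes with a trend, 3 residual degrees of freedom) used all 8 libraries with a threshold of 0.05 and was tested on simulated data. The simulation drew independent noise of a set spread, so it does not show how the fit behaves with different diseases as replicates. Pairs were formed by gate, since the labels name no animals. Python 3.11.15, scipy 1.17.1 and Biopython 1.88 (pairwise identity) did the rest.

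Members, the receptor and gamma-delta lists and the marker lists (T, B, myeloid and NK cells, basophils and mast cells, progenitors, plasmacytoid dendritic cells) were chosen with earlier results of these data known. Named were all constant and D genes, the 3 highest V and J segments per library at 10 FPKM or more, the V segments next to that level, and genes of both lists at 5 FPKM or more, of which the text gives a selection. Other members are named to account for the group. Alternatives varied the level, pseudocount, filter, scaling, fold, pseudogenes, gate block and gates. Where markers are not described in the report, their sums in FPKM were 113050 for myeloid markers in normal myeloid and 10085 in AML, 839 to 20540 elsewhere. Progenitor markers were highest in lineage-negative cells (274.0) and plasmacytoid dendritic cell markers in normal B cells (1385).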

Additional observations from a re-analysis of the deposited data

Results flagged for a closer look

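Tcrg-C1 went in opposite directions in different gates. Its log2 difference, leukaemia minus normal, was 1.01 in the B gate (1.39 against 0.190 FPKM, from 55 against 7 fragments). That is just above the 1 used as a call, and median-ratio scaling takes it below. The difference was -4.53 in the T gate (1.03 against 45.7) and -1.71 in the lineage-negative gate (0.128 against 2.70). In the myeloid gate it was -0.15 (0.256 against 0.393), which was not called. The difference between gates was not tested, since each rests on 1 pair of libraries.

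The summed FPKM of the 22 listed beta V segments also split by gate. The log2 difference was 4.74 in the B gate (77.1 against 1.92 FPKM), -1.19 in the T gate (473.4 against 1085), -2.33 in the myeloid gate (0.355 against 5.82) and -3.08 in the lineage-negative gate (0.504 against 11.7). This difference was not tested either. The T-cell marker sum moved with the B gate value, 254.6 FPKM for B-ALL against 38.2 for normal B cells. In the T gate the marker sum was 1814 FPKM in T-ALL against 2433, and of the 7 markers 0 were at least 2-fold higher and 0 lower. It did not move with the myeloid value, at 32.8 in AML against 15.1, or with the lineage-negative one, at 1343 in AUL against 44.1. The part of the T-cell markers in these results was not tested.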

How the results depend on the processing

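Of 290 alternative values, 231 kept their call or stayed within counting error or 1.5 times, 49 moved, 9 lost and 1 gained an adjusted p under 0.05, and 0 reversed. Part of the 231 could not have changed. The 8 values without a minimum FPKM were fixed, since a 2-fold call at a pseudocount of 1 already needs 1 FPKM. Leaving out pseudogenes could not change gamma values, as 0 gamma V pseudogenes are listed. V counts of 0 could not fall at 20 FPKM or without pseudogenes. Among the alternatives that gave a count of V segments, the level of at least 10 fragments in place of 10 FPKM, added after the data had been seen, mattered most. It gave 7 beta V segments in B-ALL in place of 2, 3 in normal myeloid and 7 in lineage-negative cells in place of 0, and gamma counts of 2 in B-ALL, 1 in AML, 5 in normal T and 1 in lineage-negative cells. A level of 20 FPKM left 1 gamma V segment in normal T cells. Counted in fragments, the top share was 62.1% for beta in B-ALL and 76.6% for gamma in normal T cells. A 4-fold threshold gave 14 members higher and 0 lower in B-ALL, 6 higher in AML and 3 lower in AUL, and median-ratio scaling gave 2 lower in AML. By limma, the members higher numbered 4 with a pseudocount of 0.1, 0 without the gate block, 1 without the B gate and 0 without the T, the myeloid or the lineage-negative gate. Over all genes, limma called 140 higher and 268 lower. With a pseudocount of 0.1 it called 309 and 530, with median-ratio scaling 351 and 561, with 1 FPKM in at least 1 library 99 and 225, and without the gate block 8 and 33. Without the B gate there were 11 and 162, without the T or the lineage-negative gate 2 and 1 each, and without the myeloid gate 0 and 0. Median-ratio scaling moved the median log2 difference of all genes by -0.15 in T-ALL, 0.17 in AUL, -0.11 in B-ALL and -0.69 in AML, and a common FPKM sum moved it by 0.16 in AML. The labels give no replicate numbers, so pairs could be formed by gate only.

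With 1 library per group, differences within a gate cannot be separated from differences between animals or sorts. Depth limits the low members: 0 fragments on a V segment allow up to 3, and the AML and AUL shares of beta V segments rest on 7 fragments each. Trbv4 lies within another listed gene on the same strand, and shared reads cannot be told apart. J and D values depend on how short segments were counted, which is not given in the sources used here, and this was not tested.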
